A study of Homo sapiens with 9 samples.

Results

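The genes described here are those of glycolysis and of the cellular response to low oxygen, chosen by symbol as a list of 39 genes in the table of normalized expression. Of these, 36 of 39 had a row among the 14839 genes of the table, and the neuronal enolase ENO2 and the carbonic anhydrases CA9 and CA12 had none. The 36 measured genes fell into 4 roles: 16 glycolytic enzymes, 5 regulators of glycolytic flux, 4 subunits and prolyl hydroxylases of the hypoxia-inducible factors (HIFs), and 11 other hypoxia response genes.

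The cells were MP41, a human GNA11-mutated cell line derived from a uveal melanoma, a tumor of the pigmented layer of the eye. One culture was taken at 0 h, before transfection, and the others at 6, 12, 24, and 48 h after transfection with 66 nM of a synthetic miR-16 or of miR-CTR, the control mimic. PolyA RNA of each of these 9 conditions gave 1 library, so that all results come from 1 line and no difference between conditions has a replicate check. No agent that lowers oxygen was part of the labelled treatments.

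In glycolysis, glucose is phosphorylated by hexokinases, split into 3-carbon sugars, and turned into pyruvate, which lactate dehydrogenase reduces to lactate and pyruvate dehydrogenase passes on to mitochondria. HIF alpha subunits are marked for degradation by oxygen-dependent prolyl hydroxylases (EGLN proteins). When oxygen is low they escape it, pair with ARNT, and switch on genes of glycolysis, angiogenesis, mitophagy, and collagen modification, EGLN1 and EGLN3 among them. Many of these enzymes and targets are also regulated without low oxygen, and a transcript level does not measure HIF protein or glycolytic flux.

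The deposited values were on a log2 scale, log2(reads divided by a size factor, plus 1). The logFC is the miR-16 value minus the miR-CTR value at the same time, the early logFC its mean over 6 and 12 h, and the late logFC its mean over 24 and 48 h. A gene was called when a difference passed 0.5 in size. Errors are standard errors (SE) of read counting only, from the reads recovered from the values, and do not include the spread between cultures. The recovered reads summed to 20264725 in the shallowest library (miR-16, 6 h) and 27368923 in the deepest (miR-CTR, 48 h). In a culture, fewer cells that express a gene and less of its RNA per cell cannot be told apart. The melanocyte markers MITF, PMEL, MLANA, TYR, TYRP1, DCT, and SOX10 were all present, at 12.29 to 17.88, and DCT alone spanned 12.29 to 14.38 over the libraries. PTPRC, EPCAM, PECAM1, and KRT18, markers of other cell types, had no row, while COL1A1 lay at 8.04 to 8.86, DES at 5.15 to 5.66, and CD68 at 5.46 to 5.86. The part of such shifts in the results was not tested.

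The mature miR-16 sequence of RefSeq (GRCh38.p14) is shown because its seed, bases 2 to 8 in capitals, defines the sites searched in these genes. It is the same from MIR16-2 (chr3:160404754-160404775, forward strand) and MIR16-1 (chr13:50049027-50049048, reverse strand).

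miR-16: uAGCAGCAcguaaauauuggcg

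A site was an exact match to positions 2 to 8 (7mer-m8, TGCTGCT), the same followed by an A (8mer, TGCTGCTA), or a match to positions 2 to 7 followed by an A (7mer-A1, GCTGCTA), in the longest annotated 3′UTR of the gene. Such a match was present in 10 of the 36 genes (27.8%), beside 29.2% of 11600 genes of the table with an annotated 3′UTR. The sites below, with up to 15 bases before and 3 after them and the match in capitals, belong to the genes whose late values are described next. They lie in 3′UTR exons and are given on GRCh38, 5′ to 3′ on the transcribed strand.

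PFKFB4 (8mer, chr3:48519532-48519557, reverse strand): gcgtggctcctgaccTGCTGCTAaga
PDK1 (8mer, chr2:172606444-172606469, forward strand): tcctcaagtctctttTGCTGCTAgga
EGLN3 (7mer-m8, chr14:33949851-33949875, reverse strand): aactccacttctgaaTGCTGCTtct
BNIP3 (7mer-m8, chr10:131970424-131970448, reverse strand): acaggcgccctgtggTGCTGCTgtc
LDHA (7mer-A1, chr11:18407875-18407899, forward strand): atataaagtcataaaGCTGCTAgtt
HK2 (7mer-m8, chr2:74892850-74892874, forward strand): ctggtgtagctcctcTGCTGCTccc
TXNIP (7mer-m8, chr1:145992870-145992894, reverse strand): atcatgtgaaagggtTGCTGCTgtc
EGLN1 (7mer-m8, chr1:231365768-231365792, reverse strand): tgaactgttaaagatTGCTGCTttt

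PFKFB4 had another 7mer-m8 match and PDK1 another 2, in a 3′UTR of 12700 bases. P4HA2 and VEGFA also had 1 match each, VEGFA an 8mer. The median late logFC was -0.26 over the 10 genes with a match and -0.002 over the 26 without, beside -0.09 and 0.02 over all genes with and without one. Among the 10, the late logFC ran from -0.55 (EGLN3) to 0.15 (HK2), and EGLN1 (0.04) was also positive. Only EGLN3 of the 10 was called late, while ADM, also called down, had no match. The 3′UTR was picked by length only, and which transcripts the cells use was not measured. The EGLN3 match is in transcript ENST00000547327.2 and starts at chr14:33949854. That is close to the RefSeq promoter window (33951075-33951324) and far from the 3′ end of the gene at 33924231. The match may thus be absent from other EGLN3 transcripts. A match is a description of the letters and does not show binding.

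The question put to these genes was how their expression differed between miR-16 and miR-CTR. At 24 and 48 h, the HIF subunit EPAS1 and the stress-response gene NDRG1 were higher with miR-16 (late logFC 0.65 ± 0.044 and 0.68 ± 0.050, SE), and the prolyl hydroxylase EGLN3 and the vasodilator peptide gene ADM were lower (-0.55 ± 0.069 and -0.62 ± 0.22). The late logFC passed 0.5 in none of the 16 glycolytic enzymes and was within 0.2 of 0 in 14 of them. Of these 14, HK1, ALDOA, PFKP, and PKM were further from 0 at 48 h alone (-0.22, -0.28, -0.31, and -0.31). The 2 of 36 genes called up late stood beside 7.76% of all genes, and the 2 of 36 called down late beside 5.73%. In total 4 of 36 (11.1%) were called late, against 13.5% of all genes, a share near the background. The early logFC passed 0.5 in none of the 36 genes, where 2.04% of all genes were called up and 1.45% down. At 48 h alone, 5 genes were called down (PFKFB4, PDK1, EGLN3, ADM, and BNIP3), beside 8.96% of all genes, and 1 was called up (NDRG1), beside 10.4%.

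The counting interval of the late logFC excluded 0 in 27 of the 36 genes, 11 of them higher and 16 lower with miR-16, beside 59.9% of all genes (29.6% higher and 30.3% lower). Of the 31 genes with a mean of at least 9, it did so in 23, beside 74.1% of all genes at that level, a share near the background. Among all genes with a mean of at least 12, the median size of the late logFC was 0.13, with a median counting SE of 0.018, and 5.51% passed 0.5. From 9 to 12 the median size was 0.16 with 7.99% past 0.5, from 7 to 9 it was 0.2 with 11.3%, and below 7, where ADM and ANKRD37 lie, it was 0.3 with 27.9%. In that lowest range the median counting SE was 0.22, of the order of the differences themselves.

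**Figure D1:**
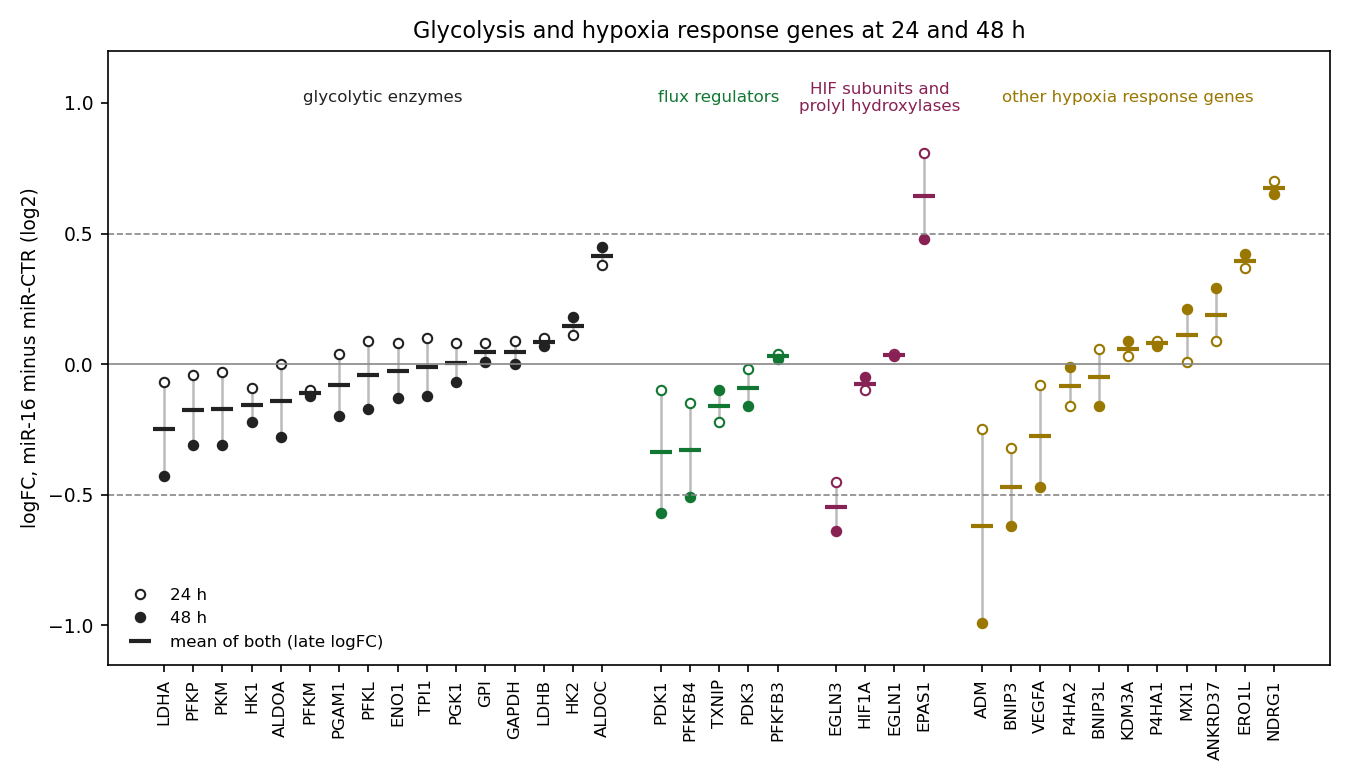
The logFC (miR-16 minus miR-CTR, log2) of the 36 measured genes by role, with 24 h as open circles, 48 h as filled circles, their mean as a bar, and dashed lines at 0.5 in size. EPAS1 and NDRG1 lie above the upper line by their mean and EGLN3 and ADM below the lower line, while the 16 glycolytic enzymes stay between the lines at both times.

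The 2 HIF alpha subunits had unlike profiles. HIF1A, the widely expressed subunit (ENSG00000100644.16, chr14:61695513-61748259), was measured at 12.28 at 0 h and at 12.42, 12.48, 12.48, and 12.26 with miR-CTR at 6, 12, 24, and 48 h. With miR-16 it was 12.43, 12.39, 12.38, and 12.21. All 9 libraries thus lay within 0.3 of each other, and the late logFC was -0.08 ± 0.020.

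EPAS1, which encodes HIF-2 alpha (ENSG00000116016.13, chr2:46293667-46386703), stood at 10.11 at 0 h. With miR-CTR it was 9.72, 9.45, 9.49, and 10.09. After miR-16 it was 10.11, 10.04, 10.30, and 10.57. The miR-CTR libraries of 6, 12, and 24 h were the lowest of the series, whereas the miR-16 libraries lay near the 0 h value at 6 and 12 h and above it at 24 and 48 h. The logFC was 0.39, 0.59, 0.81, and 0.48, positive at all 4 times, as in 17.7% of all genes. The late difference corresponded to a 1.56-fold higher value with miR-16. By 48 h the miR-CTR library was back within 0.02 of the 0 h value. Per kilobase of exon, the EPAS1 level was 0.157 of that of HIF1A at 0 h and 0.157 with miR-CTR and 0.226 with miR-16 at 48 h.

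The prolyl hydroxylases also differed from each other. EGLN3 (PHD3; ENSG00000129521.13, chr14:33924231-34462774) was 8.56 at 0 h, 8.95, 8.76, 9.03, and 9.11 with miR-CTR, against 8.73, 8.53, 8.58, and 8.47 with miR-16. It was higher at 24 and 48 h with miR-CTR than at 0 h, while the late miR-16 libraries stayed near the 0 h value. Its logFC was negative at all 4 times (-0.22, -0.23, -0.45, and -0.64), as in 16.7% of all genes. The annotated gene overlaps SPTSSA on the same strand, and how reads in the overlap were counted is not known.

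EGLN1 (PHD2, the main oxygen sensor in most cells) was 10.96 at 0 h, 10.33, 10.44, 10.40, and 10.66 with miR-CTR, compared with 10.28, 10.74, 10.44, and 10.69 after miR-16. Both mimics left it below the 0 h library at every time, and its late logFC was 0.04 ± 0.037, with an interval from -0.04 to 0.11. Per kilobase, EGLN3 was 0.187 of EGLN1 at 0 h, 0.337 with miR-CTR, and 0.211 with miR-16 at 48 h.

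**Figure D2:**
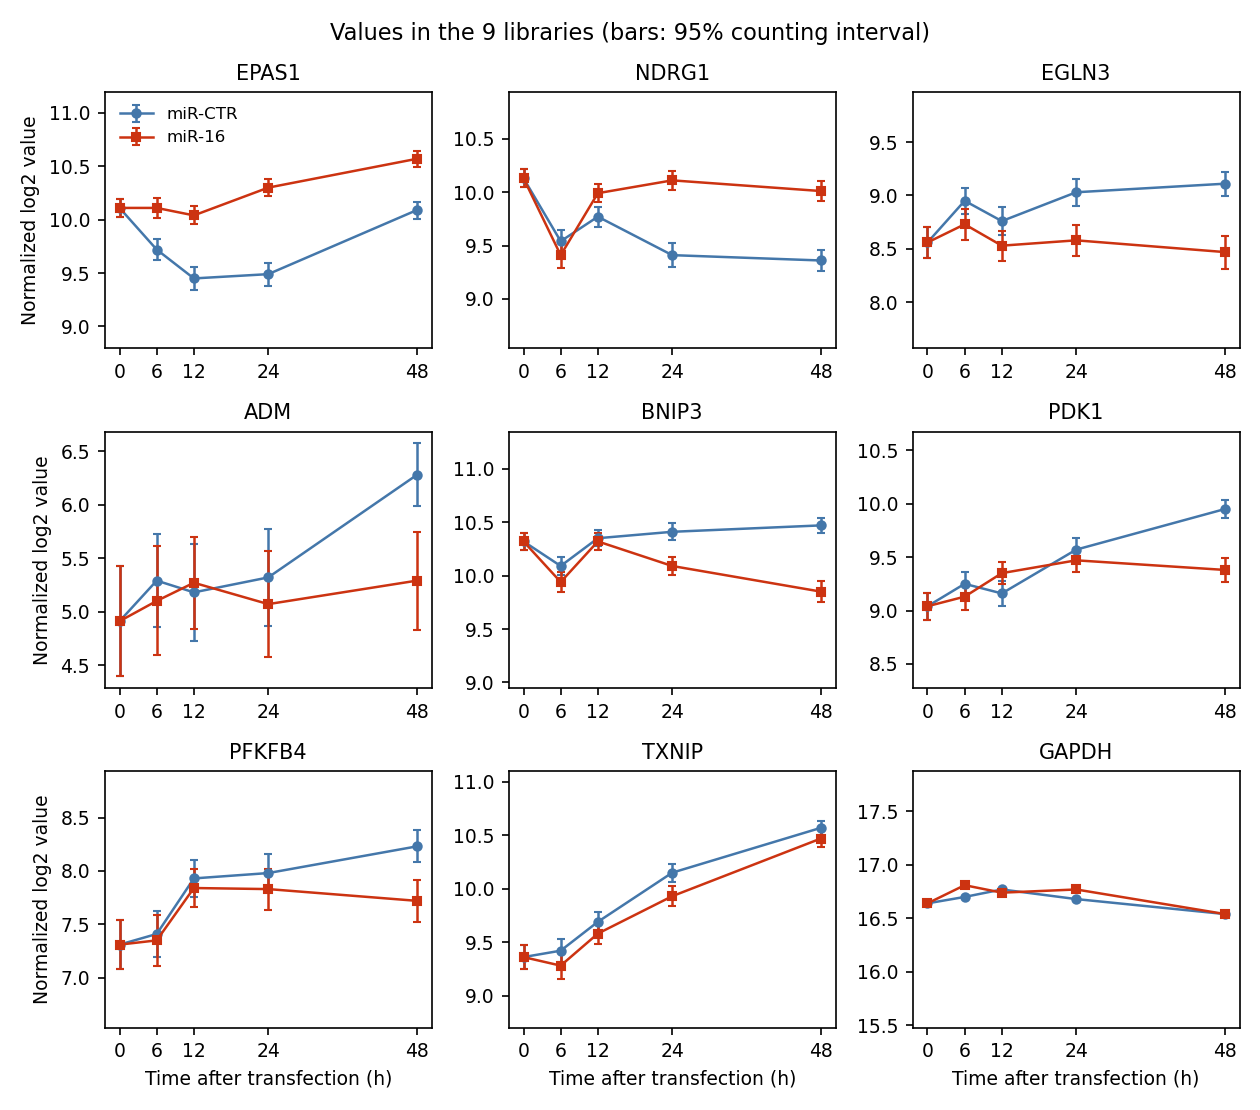
Normalized log2 values of 9 genes against time after transfection (h), with miR-CTR as circles, miR-16 as squares, both joined to the shared 0 h library, and bars for the 95% counting interval. Every panel spans the same number of log2 units. EPAS1 and NDRG1 lie higher with miR-16 at 24 and 48 h, EGLN3 and BNIP3 lie lower, TXNIP is higher at 48 h than at 0 h with both mimics, and GAPDH is nearly flat.

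Among the 11 other hypoxia response genes, the late logFC ran from -0.62 to 0.68 with a median of 0.06. NDRG1 (ENSG00000104419.14, chr8:133237171-133302022) stood at 10.13 at 0 h. With miR-CTR it was 9.54, 9.77, 9.41, and 9.36. After miR-16 it was 9.41, 9.99, 10.11, and 10.01. Both mimics gave a low value at 6 h. The miR-16 libraries were near the 0 h value from 12 h on, and the miR-CTR libraries were not. Its logFC was 0.70 at 24 h and 0.65 at 48 h, and it alone of the 36 genes passed 0.5 at both times.

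ERO1L (now ERO1A), an oxidase of disulfide formation in the endoplasmic reticulum, had a like course at smaller size. It was 11.41 at 0 h, 11.06, 10.93, 10.84, and 10.93 with miR-CTR, against 11.07, 11.35, 11.21, and 11.35 with miR-16. From 12 h on, each miR-16 library exceeded its miR-CTR counterpart by 0.37 to 0.42.

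BNIP3, a receptor of mitophagy (ENSG00000176171.11, chr10:131966455-131982013), went the other way. It was 10.32 at 0 h, 10.09, 10.35, 10.41, and 10.47 with miR-CTR, compared with 9.94, 10.32, 10.09, and 9.85 after miR-16. The late libraries of miR-CTR were above the 0 h value and those of miR-16 below it, with a late logFC of -0.47 ± 0.043. Its relative BNIP3L, also a mitophagy receptor, had a late logFC of -0.05 ± 0.040 and was higher at 48 h than at 0 h with both mimics (10.01 at 0 h, 10.57 with miR-CTR, 10.41 with miR-16). The BNIP3L to BNIP3 ratio per kilobase was 0.997 at 0 h and 1.33 with miR-CTR and 1.82 with miR-16 at 48 h. BNIP3 has 39 annotated pseudogenes, 1 of which has a row, so reads may be split between copies.

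ADM, which encodes adrenomedullin (ENSG00000148926.9, chr11:10304680-10307397), had the lowest mean of the 36 genes, with 28 to 90 reads per library. It was 4.91 at 0 h, 5.29, 5.18, 5.32, and 6.28 with miR-CTR, against 5.10, 5.27, 5.07, and 5.29 with miR-16. The miR-CTR library of 48 h stood apart from the other 8, which lay between 4.91 and 5.32. The logFC was -0.25 at 24 h and -0.99 at 48 h, so the late call rested on the 48 h libraries. Without the 48 h libraries, ADM was at -0.25 and was not called.

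VEGFA, the main angiogenic growth factor (ENSG00000112715.21), was 8.44 at 0 h, 8.65, 8.73, 8.63, and 8.85 with miR-CTR, compared with 8.69, 8.71, 8.55, and 8.38 after miR-16. Up to 24 h the mimics differed by at most 0.08, and at 48 h the logFC was -0.47. The late logFC was -0.28 ± 0.074.

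The remaining hypoxia genes differed little between the mimics late. The collagen prolyl hydroxylase subunits P4HA1 and P4HA2 were at 0.08 ± 0.037 and -0.09 ± 0.047, and the histone demethylase gene KDM3A was at 0.06 ± 0.028. MXI1, an antagonist of MYC, was at 0.11 ± 0.052, and ANKRD37 was at 0.19 ± 0.15 from 59 to 104 reads. ANKRD37 overlaps UFSP2 on the other strand, and strand use in the counting is not known.

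The regulators of glycolytic flux had a median late logFC of -0.16. PDK1, a kinase that shuts off pyruvate dehydrogenase (ENSG00000152256.13, chr2:172555373-172608669), was 9.04 at 0 h, 9.25, 9.16, 9.57, and 9.95 with miR-CTR, against 9.13, 9.35, 9.47, and 9.38 with miR-16. PFKFB4, which makes and degrades the phosphofructokinase activator fructose 2,6-bisphosphate (ENSG00000114268.11, chr3:48517684-48562015), was 7.31 at 0 h, 7.41, 7.93, 7.98, and 8.23 with miR-CTR, compared with 7.35, 7.84, 7.83, and 7.72 after miR-16. In both genes the highest library was miR-CTR at 48 h. The logFC was -0.10 and -0.57 for PDK1 and -0.15 and -0.51 for PFKFB4 at 24 and 48 h. Their late logFC was -0.34 ± 0.053 and -0.33 ± 0.093.

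TXNIP, an inhibitor of glucose uptake whose transcription follows the sugar supply (ENSG00000265972.5, chr1:145992435-145996600), was 9.36 at 0 h, 9.42, 9.69, 10.15, and 10.57 with miR-CTR, against 9.28, 9.58, 9.93, and 10.47 with miR-16. Values at each later time were higher than at the one before from 6 h on, with both mimics. The mean late value was 2-fold that of 0 h with miR-CTR and 1.79-fold with miR-16. The logFC was negative at all 4 times, as in 16.7% of all genes, but no further from 0 than -0.22. PFKFB3, the paralog of PFKFB4, had a late logFC of 0.03 ± 0.033 and PDK3 of -0.09 ± 0.050.

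The glycolytic enzymes had a median late logFC of -0.03, with a range from -0.25 to 0.42, beside a median of 0.01 over all genes. Their summed reads made up 1.32% to 1.6% of a library. Over the 9 libraries the range of a gene was between 0.17 (GPI) and 0.79 (HK2). ALDOC, the brain-type aldolase (ENSG00000109107.13, chr17:28573115-28577264), had the largest positive value of the role, with 9.99 at 0 h, 9.92, 10.05, 10.30, and 10.17 with miR-CTR, compared with 10.19, 10.22, 10.68, and 10.62 after miR-16. Every miR-16 library was above the miR-CTR library of its time (by 0.27, 0.17, 0.38, and 0.45), and the late logFC was 0.42 ± 0.039.

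LDHA, the lactate dehydrogenase subunit that favors lactate formation (ENSG00000134333.13, chr11:18394388-18408425), had the largest negative value. It was 14.82 at 0 h, 14.83, 14.93, 14.81, and 14.61 with miR-CTR, against 14.85, 14.95, 14.74, and 14.18 with miR-16. The mimics differed by at most 0.07 up to 24 h, and miR-16 was lower by 0.43 at 48 h (logFC -0.43). LDHA has 6 annotated pseudogenes, 5 of them with a row. LDHB, the other subunit, varied from 14.79 to 15.02, with a late logFC of 0.09.

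At the first steps, HK1, the constitutive hexokinase, had a late logFC of -0.16 ± 0.020 and HK2, the inducible one, 0.15 ± 0.033. The glucose 6-phosphate isomerase GPI was at 0.05, the phosphofructokinase subunits PFKL, PFKM, and PFKP were at -0.04, -0.11, and -0.18, and the major aldolase ALDOA was at -0.14. In the payoff phase, TPI1 was at -0.01, PGK1 at 0.01, PGAM1 at -0.08, ENO1 at -0.03, and PKM, the pyruvate kinase, at -0.17. PFKP and HK1 had a negative logFC at all 4 times, and HK2 and ALDOC a positive one. In all, 7 of the 36 genes were negative at all 4 times, beside 16.7% of all genes. A positive logFC at all 4 times was found in 5, beside 17.7%.

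GAPDH, the reference gene of the RT-qPCR in the study (ENSG00000111640.14, chr12:6533927-6538374), was 16.64 at 0 h, 16.70, 16.77, 16.68, and 16.54 with miR-CTR, compared with 16.81, 16.74, 16.77, and 16.54 after miR-16. Its 9 values spanned 0.27 and its late logFC was 0.05 ± 0.0045. Among its 62 annotated pseudogenes, 7 have a row.

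The 48 h logFC was lower than that at 24 h in 14 of the 16 glycolytic enzymes and in 27 of the 36 genes, against 48.9% of all genes. For the enzymes, PKM went from -0.03 to -0.31, ALDOA from 0.00 to -0.28, PFKP from -0.04 to -0.31, and PGAM1 from 0.04 to -0.20. ALDOC and HK2 were the exceptions. The libraries of 48 h are 1 per mimic, and a difference between these 2 libraries cannot be told apart from one between the mimics.

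Isoenzyme pairs were also compared within each library, where the size factor cancels. LDHB minus LDHA was 0.03 at 0 h, 0.34 with miR-CTR at 48 h, and 0.84 with miR-16 at 48 h on the log2 scale, and per kilobase LDHB was 2.13, 2.64, and 3.73 times LDHA. Ratios per kilobase depend on the union of all annotated exons (2983 bases for LDHB, 6210 for LDHA). The lengths of the transcripts in use were not measured, so these ratios do not give relative RNA amounts. HK1 minus HK2 was 0.73 at 0 h, 1.74 with miR-CTR, and 1.34 with miR-16 at 48 h, or 1.6, 3.22, and 2.44 times per kilobase. Thus both pairs moved away from the 0 h value with both mimics, LDH further with miR-16 and hexokinase further with miR-CTR. ALDOA minus ALDOC was 4.61 at 0 h, 4.63 with miR-CTR, and 3.90 with miR-16 at 48 h, or 18.3, 18.5, and 11.2 times per kilobase. Of the phosphofructokinases, PFKM had the highest level per kilobase in every library, from 2.88 to 3.78 times that of PFKL and from 1.43 to 1.9 times that of PFKP.

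**Figure D3:**
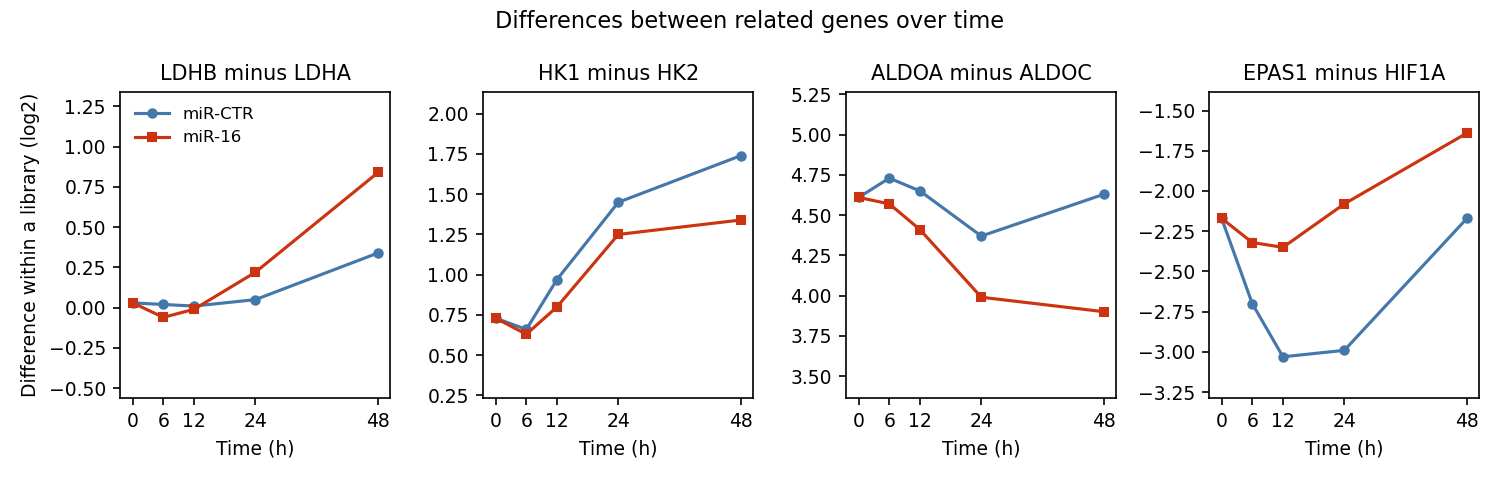
Differences between related genes within each library (log2) against time after transfection (h), with miR-CTR as circles and miR-16 as squares from the shared 0 h library. LDHB minus LDHA reaches 0.84 with miR-16 and 0.34 with miR-CTR at 48 h, HK1 minus HK2 reaches 1.34 and 1.74, and EPAS1 minus HIF1A reaches -1.64 and -2.17.

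A separate comparison set the libraries of each mimic against the 0 h library, which both share. With miR-CTR, the late mean was above 0 h by over 0.5 in 5 genes, 3 of them flux regulators (TXNIP 1.00, PFKFB4 0.80, PDK1 0.72), with ADM (0.89) and EGLN3 (0.51), beside 11% of all genes. It was below by over 0.5 in HK2 (-0.52), ERO1L (-0.53), and NDRG1 (-0.75), beside 9.79%. With miR-16, 3 genes were above (TXNIP 0.84, ALDOC 0.66, MXI1 0.57), beside 14.1%, and none was below, beside 11.7%. The values of PFKFB4, PDK1, and EGLN3 with miR-16 were 0.47, 0.39, and -0.04. For HK2, ERO1L, and NDRG1 they were -0.37, -0.13, and -0.07. The late logFC of ADM, PDK1, PFKFB4, and EGLN3 was thus made of a higher miR-CTR value, and that of NDRG1 and ERO1L of a lower one. With miR-16 these 6 genes were nearer to 0 h, but they were picked by their miR-CTR values. Other genes had miR-16 further from 0 h than miR-CTR. With miR-CTR and miR-16, BNIP3 was at 0.12 and -0.35, LDHA at -0.11 and -0.36, and ALDOC at 0.245 and 0.66. The share of all genes with either pattern was not counted. As the change from 0 h also holds transfection and time in culture, these cannot be told apart.

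The libraries of 6 h were set against the 0 h library in a comparison chosen after the values were seen. EGLN1, NDRG1, and P4HA1 were below the 0 h library by over 0.5 with each of both mimics, beside 1.77% of all genes, and none of the 36 was above by as much, beside 1.95%. With miR-CTR and miR-16 the differences were -0.63 and -0.68 for EGLN1, -0.59 and -0.72 for NDRG1, and -0.56 and -0.73 for P4HA1. BNIP3L (-0.48 and -0.62), ANKRD37 (-0.36 and -0.49), P4HA2 (-0.36 and -0.37), and ERO1L (-0.35 and -0.34) were also below by over 0.3 with both. These 7 of 36 genes stood beside 5.92% of all genes, and 6 of the 7 are in the role of 11 other hypoxia genes. The role was split, with 7 of the 11 below 0 h with both mimics (34.7% of all genes were) and VEGFA, ADM, KDM3A, and MXI1 above it with both. HIF1A and EGLN3 were above it with both as well, EGLN3 by 0.39 and 0.17, and the 16 enzymes lay between -0.12 and 0.20.

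All these differences share the single 0 h library. Against the 12 h library of the same mimic, 6 of these 7 genes were also lower at 6 h with both mimics (BNIP3L by -0.41 and -0.73). ERO1L was higher with miR-CTR (0.13), and none passed 0.5 with both, beside 0.93% of all genes. The 7 genes were picked by these same 6 h libraries, so this comparison is not an independent check.

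**Figure D4:**
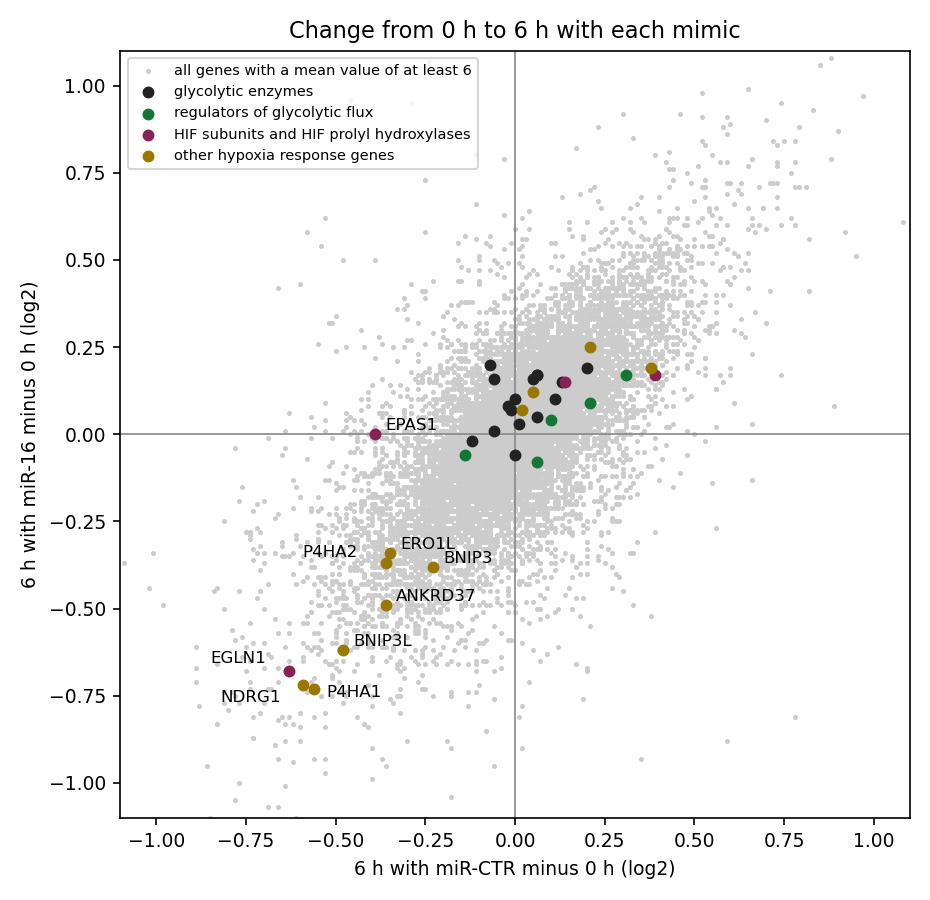
The 6 h minus 0 h difference (log2) with miR-16 against that with miR-CTR, for the 36 genes colored by role and for all genes with a mean value of at least 6 in grey, within 1.1 of 0. EGLN1, NDRG1, P4HA1, BNIP3L, ANKRD37, P4HA2, and ERO1L lie at the lower left, and EPAS1 lies at -0.39 with miR-CTR and 0.00 with miR-16.

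HIF binds DNA at the hypoxia response element, whose core reads ACGTG or GCGTG. RefSeq promoters (GRCh38.p14) were at hand for 33 of the 36 genes, and the 250 bases before the start were searched on both strands. ACGTG was found in 13 of the 33 (39.4%), beside 18.7% of 27305 promoters and 23.7% of 9599 promoters of genes in the table. GCGTG was found in 15 (45.5%), beside 31.9% and 46.3%, and the E-box CACGTG, which itself holds ACGTG, in 5 (15.2%), beside 6.49% and 9.13%. Among the 5 of the 7 genes low at 6 h that had a promoter entry, EGLN1, P4HA1, ANKRD37, and ERO1L held ACGTG, and P4HA2 did not. The rest of the 13 were not among the 7. Of these, HK2, GPI, ALDOA, GAPDH, and LDHA were above 0 h at 6 h with both mimics. PGK1, PDK3, and BNIP3 were below it with both, and ALDOC was below it with miR-CTR only. A link between motif and 6 h value was not tested. Stretches around the matches of EGLN1, P4HA1, ANKRD37, and ERO1L are printed on the gene's strand, with the match in capitals (CACGT is ACGTG on the other strand). A match of these letters is not evidence of binding.

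EGLN1 (chr1:231422288-231422335, reverse strand): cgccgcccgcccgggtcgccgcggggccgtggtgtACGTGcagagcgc
P4HA1 (chr10:73096913-73096987, reverse strand): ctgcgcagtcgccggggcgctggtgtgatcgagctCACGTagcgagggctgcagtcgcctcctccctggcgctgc
ANKRD37 (chr4:185396644-185396737, forward strand): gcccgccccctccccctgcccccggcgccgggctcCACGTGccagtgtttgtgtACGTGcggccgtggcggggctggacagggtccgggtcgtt
ERO1L (chr14:52695633-52695707, reverse strand): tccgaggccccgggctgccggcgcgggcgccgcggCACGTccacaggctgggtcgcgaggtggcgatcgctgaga

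A wider list of 76 genes of glucose handling and the HIF pathway had 60 rows. Their median late logFC was -0.12, with 40 of the 60 below 0, beside a median of 0.01 and 49.1% below 0 over all genes. Of the 60, 2 were called down, beside 5.73% of all genes, and 4 up, beside 7.76%. The 2 genes called down were the glucose transporter SLC2A3 (GLUT3), at -1.12 ± 0.096, and the hypoxia-induced gene TMEM45A, at -0.87 ± 0.18. TMEM45A was weakly expressed, with 30 to 118 reads per library. SLC2A3 was 7.68 at 0 h, 8.34, 8.83, 8.79, and 8.21 with miR-CTR, against 7.71, 7.79, 7.43, and 7.34 with miR-16. Its logFC was -0.63, -1.04, -1.36, and -0.87, negative at all 4 times, as in 16.7% of all genes. Its close paralog SLC2A14 is similar enough that reads may have been split between them. SLC2A1 (GLUT1) was at -0.44 ± 0.060, and at -0.67 at 48 h. The 4 genes called up were all weakly expressed, with at most 67 reads in a library: PGAM2 (0.96 ± 0.30), ARNT2 (0.86 ± 0.29), ARRDC4 (0.85 ± 0.26), and LOXL2 (0.54 ± 0.23). ARNT, the partner of the HIF alpha subunits, was at -0.18 ± 0.039, VHL, which marks them for degradation, at 0.08 ± 0.055, and CITED2, an inhibitor of HIF activity, at 0.46 ± 0.042.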

How the data were processed

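PolyA RNA of MP41 cells was sequenced, 1 library per condition. Per the labels, the authors used FastQC, STAR 2.4.0a, and featureCounts of Subread 1.5.0-p3 with hg38 (GRCh38). The annotation, strand setting, and filter on weak genes were not given in the sources used here. The authors deposited 1 table of other values than counts: normalized log2 values with 2 decimals. Taken as log2(reads / size factor + 1), all of the 870 low values (up to 3.5) came out as whole reads within 0.1. No further normalization was applied. The columns number the times and were taken in rising order as 0, 6, 12, 24, and 48 h.

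The logFC, the windows, and the 0.5 limit followed the study. With 1 library per condition there was no test and no p-value. Counting errors came from the recovered reads, and intervals (95%) cover counting error only, as reads without molecular identifiers are not independent molecules. The recovery and the calls were tried on simulated data that held counting error only, which cannot show how calls fare with the spread between cultures. The genes and lists were chosen with earlier results of these data known. Every measured gene was named. Values of all libraries were given for genes past 0.5 early or late, the top 2 of each role by late size, and HIF1A, EPAS1, VEGFA, TXNIP, and GAPDH. EGLN1, BNIP3, ERO1L, and SLC2A3 were outside this rule and were detailed after their values were seen, as were SLC2A1, ARNT, VHL, and CITED2. Positions and 3′UTRs were from GENCODE 29, in which all 36 genes matched by symbol (ERO1L as ERO1A), and promoters and miR-16 were from RefSeq. Levels per kilobase used the union of exons. Python 3.11.15, pandas 2.3.3, numpy 2.4.6, and matplotlib 3.10.9 were used. Alternatives were another threshold, normalization, pseudocount, filter, single times, and other reference libraries. The pull-down and RT-qPCR experiments were not analysed here.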

Additional observations from a re-analysis of the deposited data

Results flagged for a closer look

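The late libraries of the mimics lay on opposite sides of the 0 h library in 2 of the 36 genes. For BNIP3 (late logFC -0.47), both miR-CTR libraries were above 0 h and both miR-16 libraries below it. For EPAS1 (late logFC 0.65), both miR-16 libraries were above 0 h and both miR-CTR libraries below it, the one at 48 h by 0.02 only. The difference was not tested. Of all genes, 1377 of 14839 (9.28%) showed such a pattern, against 5.56% of the 36, and all these contrasts share 1 library at 0 h.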

How the results depend on the processing

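No paired analysis was possible because each condition had 1 library and no replicate numbers that could serve as a block. The logFC itself sets libraries of the same time against each other, and the 4 times are not replicates of 1 condition. With the 0 h library as reference, the value is instead miR-16 minus 0 h, which also holds transfection and time in culture. A call lost or turned against 0 h thus concerns another quantity than the difference between the mimics. Of the 2 genes called down late, 1 remained at a 1.5-fold limit, 1 with log2(CPM + 1), 1 without the 25% weakest genes, 0 at 24 h alone, 0 when both times had to pass, and 0 with the 0 h library as reference, and 5 were called down at 48 h alone. Of the 2 called up, 1 passed at both times and 1 at 48 h alone, and at 12 h alone 1 early rise was called. With the 0 h library as reference, 3 were called up (ALDOC, TXNIP, and MXI1), and neither EPAS1 nor NDRG1 was. In the wider list, 1 instead of 2 was called down without the weakest 25%, and instead of 4 up there were 2 with log2(CPM + 1), 2 at 24 h, 2 at both times, 0 without the weakest 25%, and 10 against 0 h. With the 0 h library as reference, the median late value of the flux regulators was 0.39 in place of -0.16, ADM turned to 0.27, and NDRG1 to -0.07. With the 6 and 12 h libraries as reference, the median late change with miR-CTR was 0.00 for the enzymes (0.06 against 0 h), 0.44 for the flux regulators (0.72), and 0.18 for the HIF subunits and prolyl hydroxylases (-0.12). With miR-16 it was 0.18 for the flux regulators (0.39) and 0.22 for the other hypoxia genes (0.03). The 6 h result, whose alternatives were chosen after seeing the data, kept 3 genes under the other normalizations and 0 against 12 h. The late call of EPAS1 was lost at 48 h alone (0.48) and against 0 h (0.33). That of EGLN3 was lost at 24 h alone (-0.45) and against 0 h (-0.04). The cause was not tested. Depth limited ADM and ANKRD37, at 28 to 104 reads, and in the wider list TMEM45A, at 30 to 118 reads, and the genes called up.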
